A study of Mus musculus with 4 samples.

Results

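The p53 pathway was examined in AML c-Kit+ cells through 10 genes, Trp53 itself and 9 of its direct transcriptional targets (Mdm2, Ccng1, Perp, Eda2r, Trp53inp1, Phlda3, Sesn1, Sesn2 and Zmat3). Of these 10 genes, 9 had a row among the 23552 genes of the expression table, and the expression of Eda2r was not analysed here. The genes were chosen by name as known members of the pathway, with the measured difference between SUV-OE and control libraries already known, so their fold changes are a description of this contrast and no independent evidence. RNA-seq measured the transcripts in 4 libraries of batch 2, 2 from control cells (replicates 3 and 4) and 2 from Suv39h1-overexpressing cells, called SUV-OE (replicates 2 and 3).

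All cells were c-Kit+ leukemic cells enriched from the bone marrow of moribund mice (C57BL/6 in the labels, C57BL/6J in the study's methods) with acute myeloid leukemia induced by the MLL-AF9 fusion. Control cells carried a vector that gave eGFP alone, and SUV-OE cells carried Suv39h1, an H3K9 methyltransferase, together with eGFP. Both groups therefore shared the MLL-AF9 fusion, the viral transduction and eGFP, and the leukemias had been passaged through recipient mice before the cells were collected. The cells were transduced leukemic cells grown in irradiated hosts, and the labels do not say whether the libraries of a group came from separate mice, so that the errors below measure the spread between these libraries. The study's methods state that the mice were female and 8 weeks old, and do not give the age at collection.

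p53 is a transcription factor that is kept low in unstressed cells because Mdm2, an E3 ubiquitin ligase and itself a p53 target, marks it for degradation. After DNA damage or oncogenic stress, p53 accumulates as a protein and binds response elements made of a pair of 10-base motifs, which switches on genes for cell cycle arrest, apoptosis, DNA repair and antioxidant defence. Its abundance is controlled mainly at the level of the protein, so RNA-seq reports on the Trp53 transcript and on the output of the target genes, not on p53 activity itself.

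Promoter windows were read from RefSeq (GRCm38.p6, from 250 bases before to 50 bases after the annotated start) and searched for the p53 decamer consensus, which reads alike on both strands, and for the pair of decamers closest to it. The table gave 8 windows for 7 of the 10 genes, with none for Perp, Trp53inp1 and Zmat3. The windows of Ccng1 and of the downstream start of Sesn1 are shown because, of these 8 windows, they held the pairs nearest to the consensus, with the paired decamers in capitals. The Ccng1 window lies at chr11:40755237-40755536 on the minus strand, and the Sesn1 window at chr10:41887189-41887488 on the plus strand.
Ccng1: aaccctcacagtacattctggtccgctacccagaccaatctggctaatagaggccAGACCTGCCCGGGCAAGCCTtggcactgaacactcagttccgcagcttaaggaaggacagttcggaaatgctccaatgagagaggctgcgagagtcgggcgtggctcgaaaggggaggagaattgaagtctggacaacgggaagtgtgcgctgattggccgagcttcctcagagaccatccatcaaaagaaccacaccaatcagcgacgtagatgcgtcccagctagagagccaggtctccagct
Sesn1: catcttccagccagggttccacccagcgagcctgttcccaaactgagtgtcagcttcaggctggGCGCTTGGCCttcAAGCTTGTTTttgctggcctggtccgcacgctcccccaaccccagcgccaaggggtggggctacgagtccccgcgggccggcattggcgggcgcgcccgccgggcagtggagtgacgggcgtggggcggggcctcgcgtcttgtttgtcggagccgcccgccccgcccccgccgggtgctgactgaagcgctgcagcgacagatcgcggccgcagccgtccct
The Ccng1 pair had 1 mismatch and a spacer of 0 bases, and began 195 bases before the start. Of the 32851 windows in the table, 0.63% held a pair with at most 1 mismatch. The Sesn1 pair had 2 mismatches and a spacer of 3 bases, beginning 186 bases before the start, and 4.09% of windows held one with at most 2. A perfect decamer was present in 4 of the 8 windows, those of Trp53 (75 bases before the start), Mdm2 (186 bases before), Ccng1 and the downstream Sesn1 start, against 8.4% of all windows. The windows of Phlda3, Sesn2, Eda2r and the upstream Sesn1 start held none. These matches describe letters in a short window, and binding was not measured.

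Expression is given in FPKM, a fragment count scaled to transcript length and to the size of the library, as the authors deposited it. Fold changes are differences of log2(FPKM + 1), SUV-OE minus control, from limma with a moderated variance, over 13736 genes whose FPKM averaged 0.5 or more, a filter that all 9 genes with a row passed. The added 1 understates the change of genes expressed near or below 1 FPKM. A differentially expressed gene (DEG) had a Benjamini-Hochberg adjusted p under 0.05 and a log2 fold change of 1 or more in either direction. Suv39h1 itself, which checks the labels, was at 12.4 FPKM in both control libraries and at 75.3 and 81.2 FPKM in SUV-OE replicates 2 and 3 (log2 fold change 2.56, SE 0.11, limma adjusted p = 0.00866). Kit, the marker used to enrich the cells, stood at 20.4 and 19.2 FPKM in control and at 28.6 and 25.4 FPKM in SUV-OE cells (log2 fold change 0.43, limma adjusted p = 0.160).

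Perp and Trp53inp1, genes of the apoptotic branch, were higher in both SUV-OE libraries than in both control libraries and were upregulated DEGs. Sesn1 was also higher in both SUV-OE libraries but was no DEG, and Zmat3 was lower in both. The 5 others, Trp53, Mdm2, Ccng1, Phlda3 and Sesn2, had overlapping groups. Of the 9 genes, 2 were upregulated DEGs and 0 were down-regulated, where 0.815% of all tested genes were upregulated and 0.408% down-regulated DEGs. Both SUV-OE libraries stood above both controls for 3 of the 9 genes and below them for 1, against 25.4% and 28.4% of all tested genes. An unadjusted p under 0.05 was reached by 3 of the 9, and by 20.7% of all tested genes. The median log2 fold change was 0.09 over the 9 genes and -0.02 over all tested genes. In bulk libraries such as these, fewer cells of a type and less RNA per cell cannot be told apart.

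**Figure D1:**
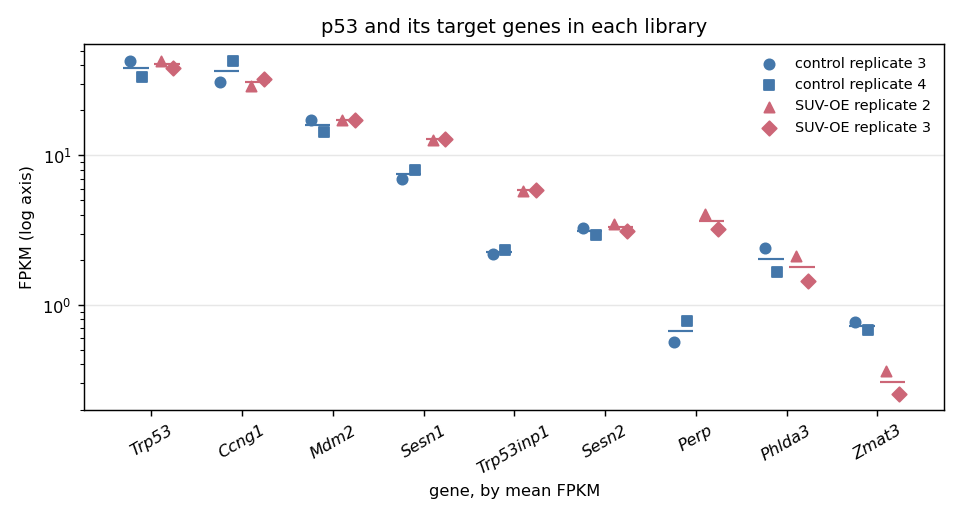
FPKM (log axis) of Trp53 and 8 target genes, ordered by mean level, in control replicates 3 and 4 (blue) and SUV-OE replicates 2 and 3 (red). Points are libraries and short lines are group means. The red points stand apart above the blue ones for Sesn1, Trp53inp1 and Perp and below them for Zmat3.

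The level of the transcripts spanned a wide range. Trp53 was the most abundant of the 9 genes, with a mean of 39.4 FPKM over the 4 libraries, followed by Ccng1 (33.7 FPKM), and the ranges of this pair overlapped. Mdm2 (16.6 FPKM) and Sesn1 (10.1 FPKM) came next, each apart from its neighbours. Trp53inp1 (4.04 FPKM), Sesn2 (3.20 FPKM), Perp (2.15 FPKM) and Phlda3 (1.91 FPKM) formed a run in which each gene overlapped the one after it. The place of Perp in this run came from the SUV-OE libraries. In control alone Perp averaged 0.674 FPKM and overlapped Zmat3. Zmat3 was lowest over the 4 libraries at 0.517 FPKM, below every library of Phlda3. It passed the filter only through the control libraries (mean 0.726 FPKM, against 0.308 FPKM in SUV-OE), so that its group difference and its place in the counts above support nothing.

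Trp53 (ENSMUSG00000059552, chr11:69580359-69591873, plus strand, mm10) encodes p53. Its level was 43.0 and 33.5 FPKM in control replicates 3 and 4 and 42.6 and 38.6 FPKM in SUV-OE replicates 2 and 3. The SUV-OE libraries lay between the control libraries, so the groups overlapped. Group means were 38.2 ± 6.71 and 40.6 ± 2.81 FPKM (SD, n = 2 each), and the log2 fold change was 0.09 with a 95% interval of -0.33 to 0.51 (limma). The control replicates differed from each other by -0.35 on the log2 scale, more than the groups did. These values rested on 2286 to 3382 reads per library, recovered from the FPKM as described in the processing notes, so counting error was small beside the spread between libraries.

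Mdm2 (chr10:117688875-117710758, minus strand) encodes the ubiquitin ligase that closes the negative feedback loop on p53, and its transcript is a widely used readout of p53 output. It was at 17.3 and 14.4 FPKM in control and at 17.3 and 17.2 FPKM in SUV-OE cells. Control replicate 4 was the low library, and the other three were alike. The log2 fold change was 0.12 with an interval of -0.22 to 0.46. A doubling of Mdm2, about 1 on this scale, lay outside that interval.

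Ccng1 (chr11:40748552-40755311, minus strand) encodes cyclin G1, which recruits protein phosphatase 2A and feeds back on Mdm2. It was at 30.8 and 42.7 FPKM in control and at 29.0 and 32.5 FPKM in SUV-OE cells. Control replicate 4 was the highest library, control replicate 3 lay between the SUV-OE libraries, and the log2 fold change was -0.24 (interval -0.73 to 0.26). It was -0.47 without control replicate 3 and -0.0073 without control replicate 4. The gap between the control replicates was 0.46 on the log2 scale, larger than the difference between the groups.

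Perp (ENSMUSG00000019851, chr10:18845020-18857073, plus strand) encodes a tetraspan membrane protein that acts in p53-dependent apoptosis and, in stratified epithelia, in desmosomes. It was at 0.568 and 0.779 FPKM in control and at 4.06 and 3.20 FPKM in SUV-OE cells. Both SUV-OE libraries were high and both control libraries low, with a wide gap between them. Group means were 0.674 ± 0.150 and 3.63 ± 0.612 FPKM (SD, n = 2 each), a 5.39-fold difference of FPKM. On the log2(FPKM + 1) scale the fold change was 1.46 (SE 0.17, interval 1.02 to 1.91, limma adjusted p = 0.0434, upregulated DEG), and 1.12% of tested genes had a higher one. The call of Perp was lost with a pseudocount of 0.1 (limma adjusted p = 0.0516), with no filter on low values (0.137) and with any 1 library left out (0.123 to 0.263, log2 fold change 1.33 to 1.60). With no filter or a library left out, limma called 0 of all genes, not even Suv39h1, and gave 1166 to 4177 genes an unadjusted p under 0.05. Few reads lay behind these values, with 21 and 25 in the control and 137 and 108 in the SUV-OE libraries. The ratio of these reads per unit of depth was 5.45, with an exact 95% interval of 3.96 to 7.64 that covers counting error only.

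Perp was low beside Trp53 or Ccng1 in both groups, and of the other epithelial and desmosomal genes examined 1 was a DEG. That gene, Epcam, an epithelial adhesion molecule, was at 0.328 and 0.494 FPKM in control and 18.6 and 18.4 FPKM in SUV-OE cells. Of the 8 epithelial and desmosomal markers listed, 4 passed the filter, 3 of these were higher in SUV-OE and 1 was a DEG, and the summed level of all 8 was 13.98 to 15.8 FPKM in control and 31.6 to 36.1 FPKM in SUV-OE libraries. That gap came from Epcam, since without it the sums overlapped, at 13.5 to 15.5 FPKM in control and 13.2 to 17.5 FPKM in SUV-OE libraries, and the keratins Krt18 and Krt8 were below both controls in both SUV-OE libraries. The desmosomal partners Pkp2 and Dsg2 and the epithelial genes Cdh1 and Krt8 failed the filter, with Dsg2 listed at 0 in SUV-OE replicate 2. The part of other cells in the level of Perp was not tested.

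Trp53inp1 (ENSMUSG00000028211, chr4:11156431-11174379, plus strand) encodes a stress-induced protein that promotes p53 phosphorylation, apoptosis and autophagy. It was at 2.18 and 2.32 FPKM in control and at 5.81 and 5.88 FPKM in SUV-OE cells. The libraries of each group were almost level, and the groups were far apart. Means were 2.25 ± 0.0992 and 5.84 ± 0.0537 FPKM (SD, n = 2 each), 2.60-fold higher in SUV-OE. The log2 fold change was 1.08 (SE 0.12, interval 0.76 to 1.39, limma adjusted p = 0.0423, upregulated DEG), near the fold threshold of 1. This call too was lost with no filter (limma adjusted p = 0.129) and with any 1 library left out (0.115 to 0.357, log2 fold change 1.05 to 1.11). The control libraries held 274 and 253 reads and the SUV-OE libraries 667 and 677, a ratio of 2.61 (counting interval 2.36 to 2.89).

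The sestrins are stress-inducible proteins that restrain mTORC1 and protect against oxidants. Sesn1 (chr10:41809935-41908424, plus strand) was at 6.95 and 7.94 FPKM in control and at 12.7 and 12.9 FPKM in SUV-OE cells. Both SUV-OE libraries were above both control libraries, 1.72-fold on the means, and the log2 fold change was 0.71 (SE 0.12, interval 0.40 to 1.02). The limma adjusted p was 0.0780, so Sesn1 met neither threshold for a DEG. Its paralog Sesn2 (chr4:132492032-132510501, minus strand), which also answers to ATF4 and other stress signals, was at 3.27 and 2.93 FPKM in control and at 3.49 and 3.12 FPKM in SUV-OE cells. The groups of Sesn2 overlapped, and its log2 fold change was 0.07 (interval -0.28 to 0.42). Whether the fold changes of Sesn1 and Sesn2 differ from each other was not tested.

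Zmat3 (chr3:32334792-32366014, minus strand) encodes an RNA-binding zinc finger protein that regulates splicing and acts in p53-mediated tumor suppression. It was at 0.769 and 0.684 FPKM in control and at 0.360 and 0.256 FPKM in SUV-OE cells, both SUV-OE libraries being below both control libraries. The control mean was 2.36-fold higher, opposite to Perp and Trp53inp1. On the log2(FPKM + 1) scale, which compresses values this low, the fold change was -0.40 (SE 0.17, interval -0.85 to 0.05, limma adjusted p = 0.277). The long Zmat3 transcript still gave 171 and 132 reads in the control and 73 and 52 in the SUV-OE libraries, a ratio of 0.422 (counting interval 0.340 to 0.521). Tested on the recovered reads with limma-voom, Zmat3 had a log2 fold change of -1.25 and an adjusted p of 0.0447, which makes it a down-regulated DEG there, where 4.68% of 14292 genes were DEGs in either direction. Perp and Trp53inp1 were upregulated DEGs with both methods.

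Phlda3 (chr1:135766119-135769136, plus strand) encodes a pleckstrin homology domain protein that competes with Akt for membrane lipids. It was at 2.41 and 1.67 FPKM in control and at 2.13 and 1.44 FPKM in SUV-OE cells. Control replicate 3 and SUV-OE replicate 2 were the higher libraries of their groups, the groups overlapped, and the log2 fold change was -0.13 (interval -0.67 to 0.42). With 40 to 73 reads per library, it was the least deeply covered of the genes with overlapping groups.

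**Figure D2:**
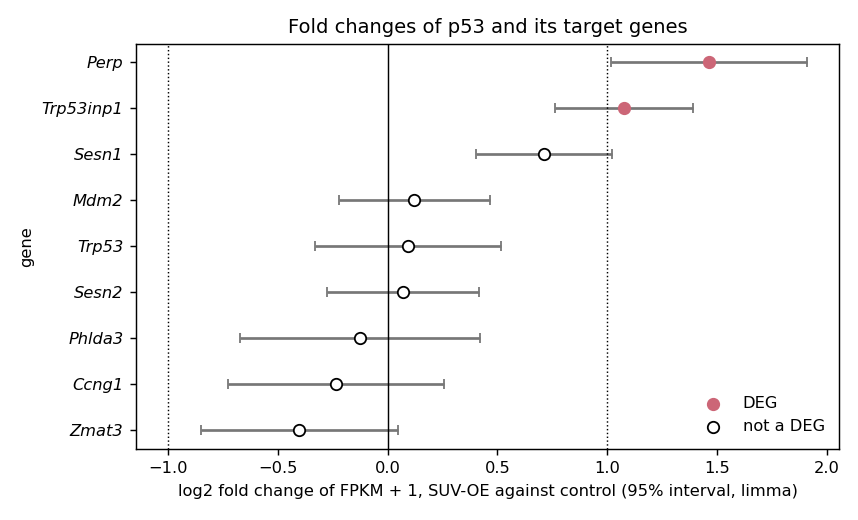
Log2 fold change of FPKM + 1, SUV-OE against control, for each of the 9 genes (x axis), with 95% intervals from limma. Filled points are DEGs and dotted lines mark a log2 fold change of 1 in either direction. Only the intervals of Perp, Trp53inp1 and Sesn1 lie wholly above 0, and of these Perp alone lies wholly above 1.

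The difference between groups was larger than both differences between replicates for 4 of the 9 genes, Perp, Trp53inp1, Sesn1 and Zmat3, the last of which passed the filter only through the group where it was high. The same held for 41.2% of all tested genes, so this share is no result about the pathway. Perp was 1.46 apart between groups, against 0.18 between the control replicates and -0.27 between the SUV-OE replicates on the log2 scale. Trp53inp1 was 1.08 apart, against 0.06 and 0.02. For Trp53, Mdm2, Ccng1, Phlda3 and Sesn2, at least 1 pair of replicates differed by more than the groups did.

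**Figure D3:**
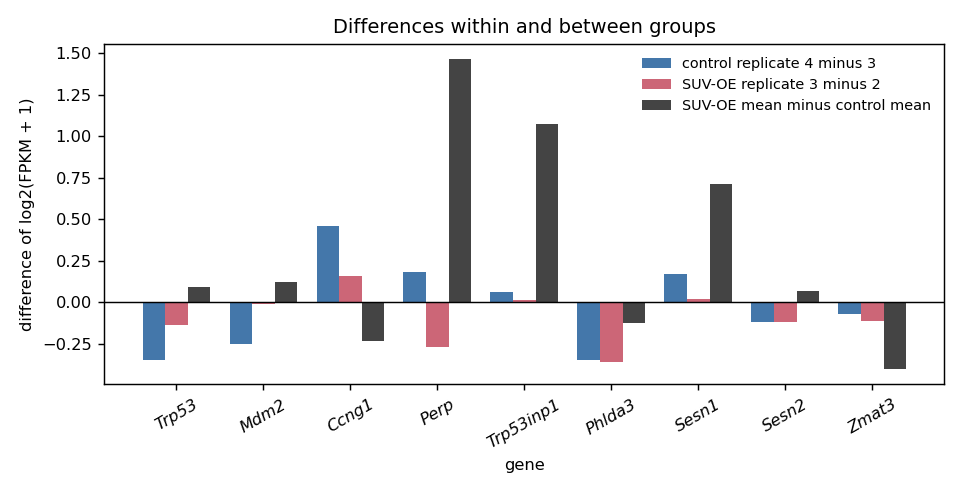
Differences of log2(FPKM + 1) for each gene: control replicate 4 minus 3 (blue), SUV-OE replicate 3 minus 2 (red) and the mean of SUV-OE minus the mean of control (dark). The dark bar is the longest for Perp, Trp53inp1, Sesn1 and Zmat3, and a blue or red bar is the longest for the other 5 genes.

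The rest of the pathway gives the setting. A list of 70 other genes (p53 regulators, 4 groups of targets, and paralogs of the genes above) held 59 tested genes, of which 0 were DEGs and 12 had an unadjusted p under 0.05, where 20.7% of all tested genes had one. limma-voom gave 0 DEGs as well, with 14 genes at an unadjusted p under 0.05. Among the 59, 23 had a higher and 36 a lower mean log2 value in SUV-OE, with both SUV-OE libraries above both controls for 15 and below for 13, close to the 25.4% and 28.4% of all tested genes. The median log2 fold change was -0.08.

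In SUV-OE cells, 9 of 16 regulators were higher and 7 lower, and their median log2 fold change was 0.01. Mdm4, the Mdm2 relative that holds p53 inactive, was at 15.4 and 18.2 FPKM in control and at 23.2 and 20.8 FPKM in SUV-OE cells (log2 fold change 0.37, limma adjusted p = 0.225). Cdkn2a, the locus of the Mdm2 inhibitor p19Arf and of p16Ink4a, which a value per gene does not separate, was at 7.90 and 5.87 FPKM in control and at 4.71 and 3.70 FPKM in SUV-OE cells (-0.59, limma adjusted p = 0.187). Neither passed the test, although the groups did not overlap for either gene.

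Of the cell cycle arrest targets, 7 were tested, with a median log2 fold change of -0.31. Their log2 fold changes were all below 0, where 53% of all tested genes were lower in SUV-OE, but 0 were DEGs, 0 had an unadjusted p under 0.05 by limma and the groups of 6 of them overlapped. The count of 7 below 0 rested on single libraries, as 3 genes were above 0 without SUV-OE replicate 2 (Btg2, Cdkn1a and Plk2) and 3 without control replicate 3 (Btg2, Plk2 and Sfn). Without SUV-OE replicate 3, Sfn alone was above 0, and without control replicate 4 none was. Sfn was level between the groups in the reported fit, at -0.00035. Cdkn1a, which encodes the CDK inhibitor p21, was at 11.8 and 12.1 FPKM in control and at 7.68 and 15.0 FPKM in SUV-OE cells (-0.14, limma adjusted p = 0.830). Its SUV-OE libraries lay on either side of both controls. Gadd45a, a DNA damage-inducible growth arrest gene, and Gtse1, a microtubule protein that restrains p53, had log2 fold changes of -0.42 and -0.31 (limma adjusted p = 0.374 and 0.412).

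Among 12 apoptosis targets, 4 were higher and 8 lower, with a median of -0.16. Dram1, a lysosomal protein that links p53 to autophagy, was at 10.1 and 11.3 FPKM in control and at 15.6 and 16.9 FPKM in SUV-OE cells (0.56, limma adjusted p = 0.110). Aen, an apoptosis-enhancing nuclease, was at 10.8 and 9.62 FPKM in control and at 6.34 and 7.45 FPKM in SUV-OE cells (-0.51, limma adjusted p = 0.149). These genes lay in opposite directions, each without overlap, and neither was a DEG. The core effectors were closer together. Bax, which permeabilizes mitochondria, was at 123 and 121 FPKM in control and at 99.5 and 109 FPKM in SUV-OE cells (-0.23, limma adjusted p = 0.395), and Bbc3, the BH3-only protein Puma, was at 9.55 and 4.93 against 9.37 and 9.10 FPKM (0.37, limma adjusted p = 0.517).

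Of 11 DNA repair and metabolism targets, 6 were higher and 5 lower, with a median of 0.06. Pank1, a coenzyme A synthesis enzyme, had a log2 fold change of 0.45 and Xpc, a nucleotide excision repair sensor, of -0.47 (limma adjusted p = 0.147 and 0.164). Of 9 other targets, 1 was higher and 8 lower (median -0.08), led by Dcxr, a carbonyl reductase, at -0.28 and Ckap2, a spindle protein, at -0.38 (limma adjusted p = 0.249 and 0.276). Of the 5 tested paralogs, Mdm4 among them, 4 were higher in SUV-OE. Sesn3, a higher paralog, passed the filter only through SUV-OE (mean 0.717 FPKM, against 0.414 FPKM in control). Pmp22, the lower paralog, passed it only through control (mean 0.926 FPKM, against 0.347 FPKM in SUV-OE). The directions of Sesn3 and Pmp22, and so the count of 4, support nothing. Ccng2, the relative of Ccng1 that is a known target of FoxO factors, was at 5.59 and 5.03 FPKM in control and at 9.56 and 8.68 FPKM in SUV-OE cells (0.68, limma adjusted p = 0.0856). Trp53inp2, the autophagy relative of Trp53inp1, had a log2 fold change of 0.44 (limma adjusted p = 0.186). Neither paralog passed the test, and differences from Ccng1 and Trp53inp1 were not tested.

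**Figure D4:**
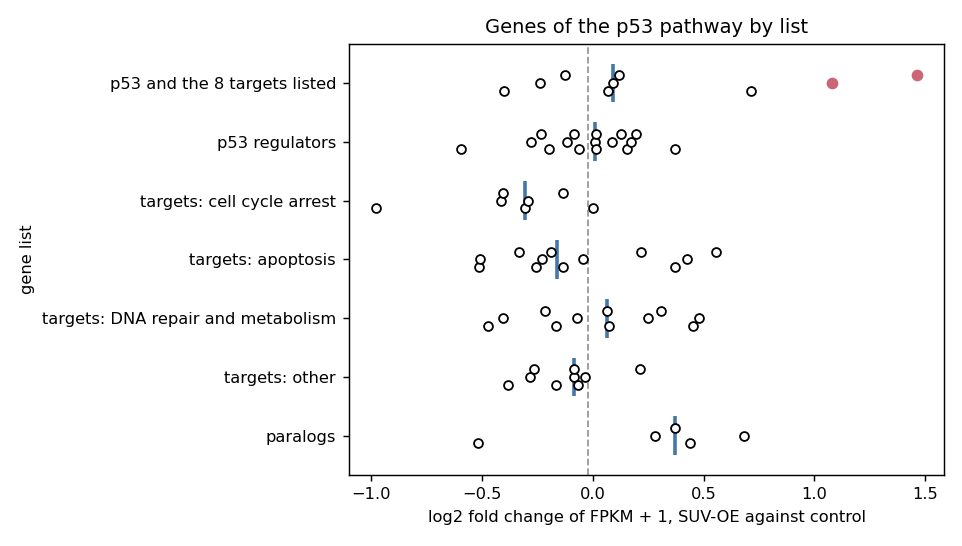
Log2 fold change of FPKM + 1, SUV-OE against control (x axis), of each tested gene in 7 lists (rows). Points are genes, filled where the gene is a DEG, blue bars are list medians and the dashed line is the median of all tested genes (-0.02). The filled points are Perp and Trp53inp1 in the top row, and the lists of other pathway genes hold none.

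Likeness of pattern was measured as the Euclidean distance between gene-centred log2(FPKM + 1) values over the 4 libraries. The nearest genes to Trp53 were Qk (distance 0.0136), Hoxa7 (0.0152) and Ksr1 (0.0181), and 189 genes lay within 0.1, as many genes had the same shallow profile. Perp had fewer close companions. Its nearest genes were Gm37233 (0.119), Tal1 (0.123) and Gm7061 (0.140), and 0 genes lay within 0.1. Tal1, a transcription factor of erythroid, megakaryocytic and stem cells, was at 0.200 and 0.271 FPKM in control and at 2.54 and 2.24 FPKM in SUV-OE cells.

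The summed levels of B-lymphoid, neutrophil, monocyte, megakaryocyte, and endothelial and stromal markers were higher in both SUV-OE libraries than in both control libraries, and those of erythroid and of T and NK cell markers overlapped. For the marker counts that follow, 0.815% of all tested genes were upregulated and 0.408% down-regulated DEGs. Both SUV-OE libraries stood above both controls for 25.4% of all tested genes and below them for 28.4%. Of 12 tested erythroid markers, 12 had a higher mean log2(FPKM + 1) in SUV-OE, though the FPKM means of Hba-a2 and Hbb-bs were lower there, the groups overlapped for 5, and 2 were DEGs, with sums of 22.1 to 145 FPKM in control and 122 to 152 FPKM in SUV-OE libraries. B-lymphoid markers (11 of 12 higher, 0 DEGs) summed to 22.3 to 31.3 FPKM in control and to 50.1 and 121 FPKM in SUV-OE replicates 2 and 3, with Ms4a1 listed at 0 in control replicate 3. Neutrophil markers (8 of 12 higher, 1 DEG, and 4 lower in both SUV-OE libraries) summed to 5907 to 8151 FPKM in control and 10261 to 12500 FPKM in SUV-OE libraries. That gap rested on S100a8 (178 and 791 FPKM in control, 2134 and 2684 FPKM in SUV-OE) and S100a9 (275 and 979, 2589 and 3262 FPKM). Without these genes the sums of the groups overlap. Monocyte and macrophage markers (7 of 8 higher, 0 DEGs) summed to 586 to 1014 and 1109 to 1304 FPKM, and megakaryocyte markers (3 of 4 higher, 0 DEGs) to 6.62 to 12.9 and 23.9 to 28.4 FPKM. The monocyte gap rested on Lyz2 (100.7 and 176.5 FPKM in control, 569.9 and 703.4 FPKM in SUV-OE), without which the sums overlap.

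T and NK cell markers (1 of 3 higher, 0 DEGs) summed to 75.6 to 115 and 78.1 to 84.4 FPKM, nearly all from Nkg7, with Cd8a at 0 in both control libraries and Cd3e and Cd3g at 0 in control replicate 3. Of 9 endothelial and stromal markers only Pecam1 passed the filter, as a DEG, with sums of 17.9 to 24.9 and 66.2 to 73.2 FPKM and with Tek and Emcn at 0 in control replicate 3. Markers of the c-Kit+ MLL-AF9 cells themselves (4 of 6 higher, 0 DEGs) summed to 332 to 343 FPKM in control and 340 to 347 FPKM in SUV-OE libraries, and without Myb, the most abundant of them, to 141 to 151 FPKM and 142 to 146 FPKM. Hoxa9 and Hoxa10 were below both controls in both SUV-OE libraries, Kit and Meis1 were above them, and the groups of Cd34 and Myb overlapped. All 6 markers were expressed in every library. The part of these cells in the differences of Perp, Trp53inp1, Sesn1 and Zmat3 was not tested.

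Around the genes, tested neighbours within 500 kb were counted after the values had been seen. For each of the 9 genes, 0 of the neighbours were DEGs, from 1 neighbour of Perp (log2 fold change -0.09) and 11 of Trp53inp1 (median -0.03) to 47 of Trp53 (median 0.02). As 0.815% of all tested genes were upregulated and 0.408% down-regulated DEGs, 0 among so few neighbours is no result. Single neighbours reached log2 fold changes of 2.24 near Mdm2, 1.32 near Sesn2 and 1.11 near Trp53, and the lowest was -0.76, near Phlda3. No exon base of the 9 genes was shared with another annotated gene, so their reads could not be split with an overlapping one. Library depth was similar, at 20085762 to 23561149 recovered reads, and libraries correlated across genes at 0.970 within control, 0.985 within SUV-OE and 0.953 to 0.966 between groups.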

How the data were processed

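RNA was measured in 4 libraries of c-Kit+ leukemic cells. According to the study's methods, the authors prepared TruSeq v2 libraries, which do not mark strand, aligned paired-end reads to mm10 with TopHat2 and called DEGs with DESeq2. The submitters' processing notes also name CASAVA 1.8. The authors deposited FPKM per gene and library, for which the methods name Cufflinks. The annotation release was not given in the sources used here.

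The genes and lists were chosen with earlier results of these data known. Genes were named one by one by rule: all 10 genes, Suv39h1, Kit, the 2 tested genes with the smallest p of each pathway list and any with an adjusted p under 0.05, Cdkn1a, Bax, Bbc3, Mdm4 and Cdkn2a, and the 3 nearest in pattern to Trp53 and Perp. Others, marker genes included, were named after their values were seen.

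FPKM were compared with limma 3.58.1 (R 4.3.3, two-sided) on log2(FPKM + 1), with an intensity trend and the group as its only term, over the 13736 genes averaging 0.5 FPKM or more, and p-values were Benjamini-Hochberg adjusted over all of them. The script was tested on simulated data. Ensembl identifiers were matched to symbols and positions in GENCODE M21 (GRCm38) for 23438 of 23552 rows. For 78.5% of genes the values were whole multiples of 1 read (tolerance 0.01) given the exon length in that annotation, which gave the reads. Perp and Sesn1 were whole at another exon length, and no length was found for Mdm2. Rounded reads entered limma-voom (mean of at least 10 reads, scaled to the authors' divisor). Counts of 3 reads on 1 kb correspond to 0.154 to 0.178 FPKM. Intervals of read ratios and floors cover counting error only, and limma's intervals the spread between libraries. Alternatives were a pseudocount of 0.1, no filter, a filter at 1 FPKM, median-of-ratios scaling, quantile normalization, no trend, a robust trend, an adjusted p under 0.1, no fold threshold, limma-voom and leaving out each library.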

Additional observations from a re-analysis of the deposited data

How the results depend on the processing

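The count of DEGs over all genes was 168 (112 up, 56 down). It was 669 by limma-voom (514 up, 155 down), 342 at an adjusted p under 0.1 (249 up, 93 down) and 0 without a filter on low values, where 4177 genes had an unadjusted p under 0.05. By limma it was 0 to 0 when any 1 library was left out, with 1166 to 3877 genes at an unadjusted p under 0.05. Such fits assume that the lone library varies like the others. The count of DEGs among the 9 genes was 2. It was 0 without a filter (limma, 4 genes at an unadjusted p under 0.05), 1 with a pseudocount of 0.1, where Perp had an adjusted p of 0.0516, 3 by limma-voom, which added Zmat3, and 0 to 0 when any 1 library was left out (limma, 3 to 4 genes at an unadjusted p under 0.05). With 1 library left out no gene was called, so the lost calls say nothing particular about Perp or Trp53inp1. Their log2 fold changes were 1.33 to 2.40 and 1.002 to 1.38 over 12 alternatives, with adjusted p of 0.0139 to 0.263 and 0.00659 to 0.357.

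The log2 fold change turned negative for Sesn2 under quantile normalization (-0.0238). With 1 library left out it ranged from -0.0833 to 0.267 for Trp53 and from -0.0061 to 0.248 for Mdm2, both negative without control replicate 4, from -0.465 to -0.0073 for Ccng1, and from -0.305 to 0.054 for Phlda3, positive without SUV-OE replicate 3 or control replicate 3. The cause was not tested. Over the alternatives Sesn1 ranged from 0.63 to 0.80 (adjusted p 0.0287 to 0.495, the lowest by limma-voom), and Zmat3 from -1.25 to -0.34 over 11. Of 107 values for single genes under an alternative, 90 kept their direction and their call as a DEG or not. Sesn1 by limma-voom is among them, since its adjusted p fell under 0.05 while its fold change stayed under the threshold. With 1 library left out, the median over the 9 genes ranged from -0.0061 (without control replicate 4) to 0.248 (without control replicate 3). The other pathway genes, 59 of which were tested in the reported fit and other numbers where the filter changed, gave 0 DEGs under every alternative (limma or limma-voom, 3 to 16 genes at an unadjusted p under 0.05). No paired analysis was possible because control and SUV-OE libraries had 1 replicate number in common. With 2 libraries a group, and 21 to 25 control reads for Perp, differences of the size of the replicate gaps were not detectable.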

Other observations

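Of the 39 tested p53 targets in the 4 lists, 9 were highest in control replicate 3 and lowest in SUV-OE replicate 2, and 7 of these also differed more between the libraries of at least 1 group than between the groups. Over all tested genes the shares were 10.5% and 4.53%. The order was chosen after the values were seen, and 5 of the 7 are given here. Btg2, an antiproliferative gene, was at 41.1 and 11.2 FPKM in control replicates 3 and 4 and at 9.74 and 26.5 FPKM in SUV-OE replicates 2 and 3. Plk3, a stress-responsive kinase, was at 18.9 and 6.88 FPKM in control and at 2.47 and 10.7 FPKM in SUV-OE cells. Plk2, its relative, was at 3.83 and 1.02 FPKM and at 0.704 and 2.81 FPKM. Ddit4, an mTORC1 inhibitor, was at 23.7 and 8.27 FPKM and at 6.92 and 15.6 FPKM, and Pmaip1, the BH3-only protein Noxa, at 46.6 and 24.3 FPKM and at 20.7 and 34.2 FPKM. Gadd45a and Fdxr are the other two. Cdkn1a and Ier5 also varied within the groups but in another order. Perp, Trp53inp1 and Sesn1 did not share that order, since both SUV-OE libraries were above both controls for each of them.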
